A study of Homo sapiens with 6 samples.

Results

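MYC binding was examined at 48 genes of central carbon metabolism, 22 of glycolysis and lactate handling, 6 of the pentose phosphate pathway, 15 of pyruvate entry and the tricarboxylic acid (TCA) cycle, and 5 of glutamate and proline metabolism. The genes were chosen by name as enzymes and transporters of these routes, out of 20037 protein-coding genes. The data are MYC chromatin immunoprecipitation sequencing (ChIP-seq) peak lists of MIAPaCa2, a human pancreatic ductal adenocarcinoma line. All cells had 48 hours in serum-free DMEM and then 3 hours in serum-free conditioned medium of primary cancer-associated fibroblasts (CM, 2 libraries) or in fresh serum-free DMEM (2 libraries), with the same MYC antibody throughout. The study used a single cell line. Whether libraries of the same medium are separate cultures is not stated in the labels, and the spread between them may be technical.

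MYC binds DNA as a dimer with MAX, at the E-box CACGTG among other sequences. It is known to act on genes of glucose uptake, glycolysis and lactate production, and on the use of glutamine as a carbon and nitrogen source. Pancreatic cancer cells are known to run glycolysis at a high rate and to use aspartate made from glutamine, through GOT2 in mitochondria and GOT1 and MDH1 in the cytosol, to supply NADPH. Most steps are served by several genes, and which isoenzyme a cell uses differs between tissues.

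A gene counted as bound in a library if that library's list had a peak no more than 1000 bp from the start or the end of the whole annotated gene. Each peak carries the authors' own score, given here as its percentile within its list, so that a peak at percentile 99 outscored nearly all others of that library. There were 15304 and 12797 peaks in the lists from CM, against 4657 and 7652 in those from DMEM. Read depth is unknown, a percentile in a short list is not equivalent to the same percentile in a long one, and no level is compared between libraries. Of 8 ductal epithelial markers, KRT8, KRT18, KRT19 and MUC1 were bound in both CM libraries and KRT7, EPCAM and CDH1 in none. Of 10 fibroblast markers, no gene had a peak in both libraries of either medium, and ACTA2 had a peak in CM library 2. Peaks at markers do not measure expression.

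MYC peaks lay at most of these genes in CM and at fewer of them in DMEM. In CM, 36 of the 48 genes (75.0%) were bound in both libraries, against 39.1% of all protein-coding genes. In DMEM, 22 of the 48 (45.8%) were bound in both libraries, against 15.9% of all genes. These 22 were bound in all 4 libraries, a call that 15.9% of all genes received. They were the glucose importer gene SLC2A1, the hexokinase gene HK2, PFKL, PFKP, ALDOA, TPI1, GAPDH, PGAM1, ENO1 and LDHA of glycolysis, PGLS, PGD, RPIA and TKT of the pentose phosphate pathway, CS, FH, MDH1 and MDH2 of the TCA cycle, and GLUD1, GOT2, PYCR1 and ALDH18A1 of glutamate and proline metabolism. The highest-ranked were ENO1, HK2 and MDH2, whose best peaks lay at or above percentile 90 of all 4 lists, as did those of 2.09% of all genes.

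Another 11 genes (22.9%), against 12.3% of all genes, had a peak in every CM library but in only 1 of the DMEM libraries, which in each of the 11 was DMEM library 2. They were PFKFB3, PGK1, PKM, RPE, TALDO1, PDK1, PDHA1, PDHB, IDH3A, IDH3G and OGDH. The lean to DMEM library 2 is not particular to these members. Of all genes, 3369 were bound in DMEM library 1 and 3186 in both DMEM libraries, so few had DMEM library 1 alone. DMEM library 2 bound 5622 genes. CM-only genes, those with a peak in each CM library and none in DMEM, were ENO2, IDH3B and SUCLG1, 3 of 48 (6.25%) against 11.0% of all genes. No member was bound in both DMEM libraries and no CM library, nor was any other gene (0.0%). A further 4 genes had a peak in 1 CM library only, SLC16A3, SUCLA2 and GOT1 in CM library 1 and IDH2 in CM library 2, against 5.97% of all genes. The other 8, HK1, GPI, PFKM, PFKFB4, ALDOC, LDHB, SLC16A1 and IDH1, had no peak at an end in any library, a state shared by 54.1% of all genes.

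**Figure D1:**
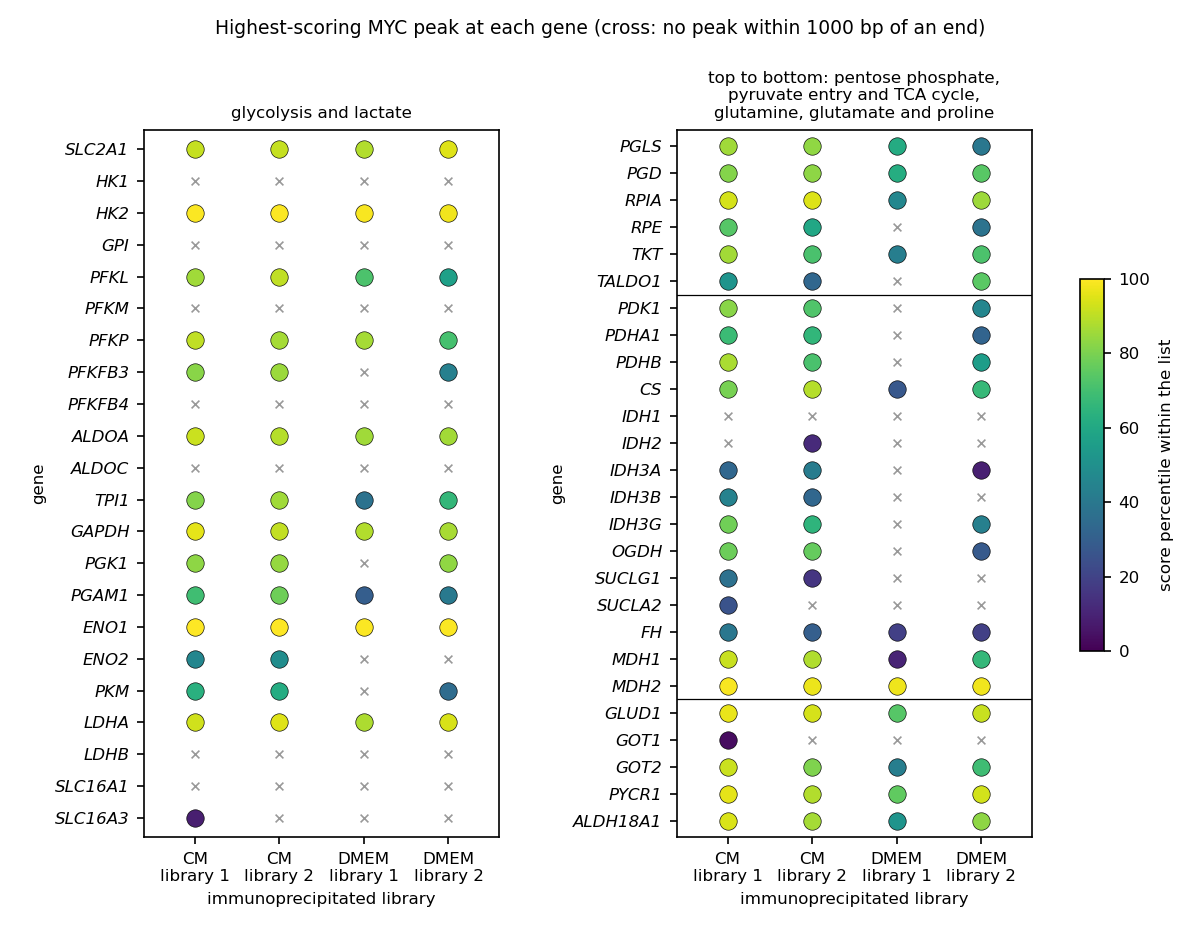
The highest-scoring MYC peak at each of the 48 genes (rows, in pathway order) in the 2 CM and 2 DMEM libraries (columns), coloured by its score percentile within that library's list; a cross marks a gene with no peak within 1000 bp of an end. ENO1, HK2 and MDH2 are near the top of all 4 lists, and DMEM library 1 has crosses at PDK1, PDHA1 and PDHB.

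Members bound per library numbered 39 and 37 in CM, a mean of 38.0 ± 1.41 (SD, n = 2), and 22 and 33 in DMEM, a mean of 27.5 ± 7.78 (SD, n = 2). The difference of 10.5 genes gave p = 0.333 in an exact permutation test, two-sided, and 2 libraries against 2 cannot give a smaller one. Both CM values lay above both DMEM values, and the DMEM libraries differed from each other by slightly more than the conditions did. Of all protein-coding genes, 43.9% and 40.9% had a peak at an end in the CM libraries and 16.8% and 28.1% in the DMEM libraries. With each list shortened to its 4657 highest-scoring peaks, the difference was 3.5 genes, both CM libraries shared 27 bound members, against 18.0% of all genes, and both DMEM libraries 21, against 13.9%. The 21 were bound in all 4 shortened lists, as were 12.3% of all genes. In these lists OGDH alone was CM-only, a state of 1.93% of all genes, and no member was bound only in DMEM, a state of 0.369%.

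The promoter sequences of HK2, LDHA, ALDH18A1 and GAPDH are shown because each holds the E-box CACGTG inside a MYC peak. That of ALDOC holds one where no library had a peak, and the windows of ENO1 and LDHB hold none. ENO1 had the highest-ranked peaks of all members and LDHB had no peak. Each window runs from 250 bases before to 50 bases after a RefSeq transcript start (GRCh38.p14), 5′ to 3′ along the gene, with CACGTG in capitals. The HK2 window is that of its second listed start. The ENO1 window covers only part of the ENO1 peaks, which were 2508 to 3903 bp wide. The rest of these peaks was not searched, so they may hold an E-box.
HK2, chr2:74834920-74835219, plus strand: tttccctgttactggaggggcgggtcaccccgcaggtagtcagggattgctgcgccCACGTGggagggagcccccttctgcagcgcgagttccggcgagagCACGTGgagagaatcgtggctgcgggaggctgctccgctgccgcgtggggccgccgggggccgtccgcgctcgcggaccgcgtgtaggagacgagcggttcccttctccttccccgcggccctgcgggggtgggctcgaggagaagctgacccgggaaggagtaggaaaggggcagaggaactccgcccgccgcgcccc
LDHA, chr11:18394313-18394612, plus strand: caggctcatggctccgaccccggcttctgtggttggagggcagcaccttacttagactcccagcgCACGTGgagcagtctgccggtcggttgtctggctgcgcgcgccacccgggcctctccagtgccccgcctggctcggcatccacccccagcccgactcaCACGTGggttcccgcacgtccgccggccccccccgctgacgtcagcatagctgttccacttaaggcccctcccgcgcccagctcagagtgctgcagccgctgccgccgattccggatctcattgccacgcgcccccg
ALDH18A1, chr10:95656662-95656961, minus strand: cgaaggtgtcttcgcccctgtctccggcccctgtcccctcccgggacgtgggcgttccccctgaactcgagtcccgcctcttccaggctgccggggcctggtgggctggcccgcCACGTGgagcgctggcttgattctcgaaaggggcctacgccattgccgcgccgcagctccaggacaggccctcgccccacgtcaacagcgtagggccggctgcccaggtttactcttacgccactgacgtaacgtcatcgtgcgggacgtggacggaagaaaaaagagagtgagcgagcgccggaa
GAPDH, chr12:6535014-6535313, plus strand: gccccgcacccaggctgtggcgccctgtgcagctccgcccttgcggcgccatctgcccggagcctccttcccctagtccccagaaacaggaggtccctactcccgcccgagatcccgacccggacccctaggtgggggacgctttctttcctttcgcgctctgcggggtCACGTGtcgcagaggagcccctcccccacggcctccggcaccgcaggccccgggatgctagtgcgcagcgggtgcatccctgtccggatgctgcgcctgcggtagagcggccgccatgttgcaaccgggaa
ALDOC, chr17:28576846-28577145, minus strand: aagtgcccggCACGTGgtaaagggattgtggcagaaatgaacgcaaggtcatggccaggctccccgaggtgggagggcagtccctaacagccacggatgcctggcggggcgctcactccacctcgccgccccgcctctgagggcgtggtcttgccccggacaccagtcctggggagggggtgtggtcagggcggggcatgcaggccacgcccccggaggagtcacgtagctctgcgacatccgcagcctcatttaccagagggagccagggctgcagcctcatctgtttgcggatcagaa
ENO1, chr1:8878637-8878936, minus strand: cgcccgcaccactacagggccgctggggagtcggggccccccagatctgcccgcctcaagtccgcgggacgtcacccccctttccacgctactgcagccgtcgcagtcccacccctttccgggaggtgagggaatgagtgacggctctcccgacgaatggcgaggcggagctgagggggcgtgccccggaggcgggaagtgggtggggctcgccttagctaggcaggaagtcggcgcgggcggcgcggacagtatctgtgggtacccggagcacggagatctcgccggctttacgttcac
LDHB, chr12:21657793-21658092, minus strand: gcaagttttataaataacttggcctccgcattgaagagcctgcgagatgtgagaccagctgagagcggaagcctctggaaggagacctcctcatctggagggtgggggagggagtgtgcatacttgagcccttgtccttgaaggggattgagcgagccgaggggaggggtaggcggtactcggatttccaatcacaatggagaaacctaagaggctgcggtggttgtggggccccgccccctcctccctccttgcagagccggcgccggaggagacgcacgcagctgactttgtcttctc

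The E-box CACGTG, which reads the same on both strands, was found in a window of 8 of the 45 members that have one listed, or 17.8%, against 10.9% of 15843 protein-coding genes. Counted by window, it was in 11.0% of the members' 73 windows and in 8.34% of all 22199 windows of protein-coding genes. The 8 were HK2, LDHA, ALDH18A1, GAPDH, ALDOA, PDHB, PFKFB3 and ALDOC, with 10 sites in all. Of the 10 sites, 9 lay under a peak of both CM libraries, 5 under a peak of all 4 libraries, and that of ALDOC under none. The 5 were the HK2 pair on chromosome 2 at 74834976 and 74835021, 194 and 149 bases before the second start, the LDHA pair on chromosome 11 at 18394378 and 18394476, 185 and 87 bases before the start, and the ALDH18A1 site on chromosome 10 at 95656842, 136 bases before the start. A motif match describes the sequence and does not locate binding, since the lists give whole intervals without a summit. The share of E-box sites under peaks over all genes is not given, so no link between E-box and peak is shown. Without CACGTG in their windows, the listed starts of ENO1, SLC2A1, RPIA, MDH2, FH and GOT2 also lay inside peaks of all 4 libraries. Those of LDHB and IDH1, also without it, lay inside none.

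CpG content of the windows was compared as a further feature. The highest ratio of observed to expected CpG among a gene's windows had a median of 0.882 over the 21 genes bound in all 4 libraries with a window, 0.72 over the 7 bound in none, and 0.799 over all genes. The values of these groups overlapped, from 0.237 at PGAM1 to 1.05 at GLUD1 for genes bound in all 4 and from 0.54 at GPI to 0.898 at HK1 for those bound in none. The 0.237 is that of the only listed PGAM1 start, at 97427818 on chromosome 10. That start lay outside the best PGAM1 peak of every library, and the next lowest value was 0.706 at MDH2. The 0.898 is that of an internal HK1 start that lay inside a peak of both CM libraries, and the next highest was 0.736 at PFKM. Of the 124 best peaks of members with a listed strand, counted over the 4 libraries, 123 lay at the 5′ end of the gene. The exception was TPI1 in CM library 1, where the highest-scoring peak was at the 3′ end, also next to SPSB2. A gene counted here once for each library that bound it. The share over all bound genes is not given, so the 5′ position is not shown to be particular to the members.

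In glycolysis, MYC peaks lay at one gene or more of every step from glucose uptake to lactate except phosphoglucose isomerase. At SLC2A1, the importer of glucose, on chromosome 1 from 42925353 to 42958868, the best peak was at percentiles 91.4 and 91.1 of the CM lists and 88.6 and 95.3 of the DMEM lists. All 4 libraries thus ranked it high. HK2, which traps glucose in the cell as its phosphate, lies on chromosome 2 from 74834127 to 74893359 and was at percentiles 99.6 and 99.5 in CM and 99.0 and 98.0 in DMEM. Its peaks were 3016 and 2469 bp wide in CM and 1244 and 1798 bp in DMEM, the DMEM peaks lying within the span of the CM peaks and over both E-boxes.

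ENO1, the enolase gene, on chromosome 1 from 8861000 to 8878686, had the highest-ranked peaks of all 48 genes, at percentiles 99.8 and 99.8 in CM and 99.4 and 99.6 in DMEM. The peak of CM library 1 ran from 8876281 to 8880183 and that of DMEM library 2 from 8877483 to 8879990, both across the start. A noncoding neighbour, ENO1-AS1, has an end in the same interval. LDHA, which turns pyruvate into lactate, on chromosome 11 from 18394563 to 18408425, was at percentiles 92.8 and 95.2 in CM and 87.6 and 94.1 in DMEM. In DMEM library 1 its best peak was only 312 bp wide, from 18394181 to 18394492, and still covered both E-boxes printed above.

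GAPDH, the dehydrogenase in the middle of the pathway, on chromosome 12 from 6534517 to 6538371, had its best peak at percentiles 95.8 and 90.8 in CM and 88.3 and 87.0 in DMEM. The CM peaks, 4267 and 3583 bp wide, ran across the start whose sequence is printed. The best DMEM peaks, 1980 and 1437 bp wide, ended at 6534747 and 6534689, across the outermost start of the gene and short of the printed one at 6535264, and DMEM library 2 had a separate smaller peak over the printed one at percentile 26.2 that covered the E-box. DMEM library 1 had no peak there. The best peaks of both CM libraries and of DMEM library 1 also lay within 1000 bp of an end of NCAPD2.

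**Figure D2:**
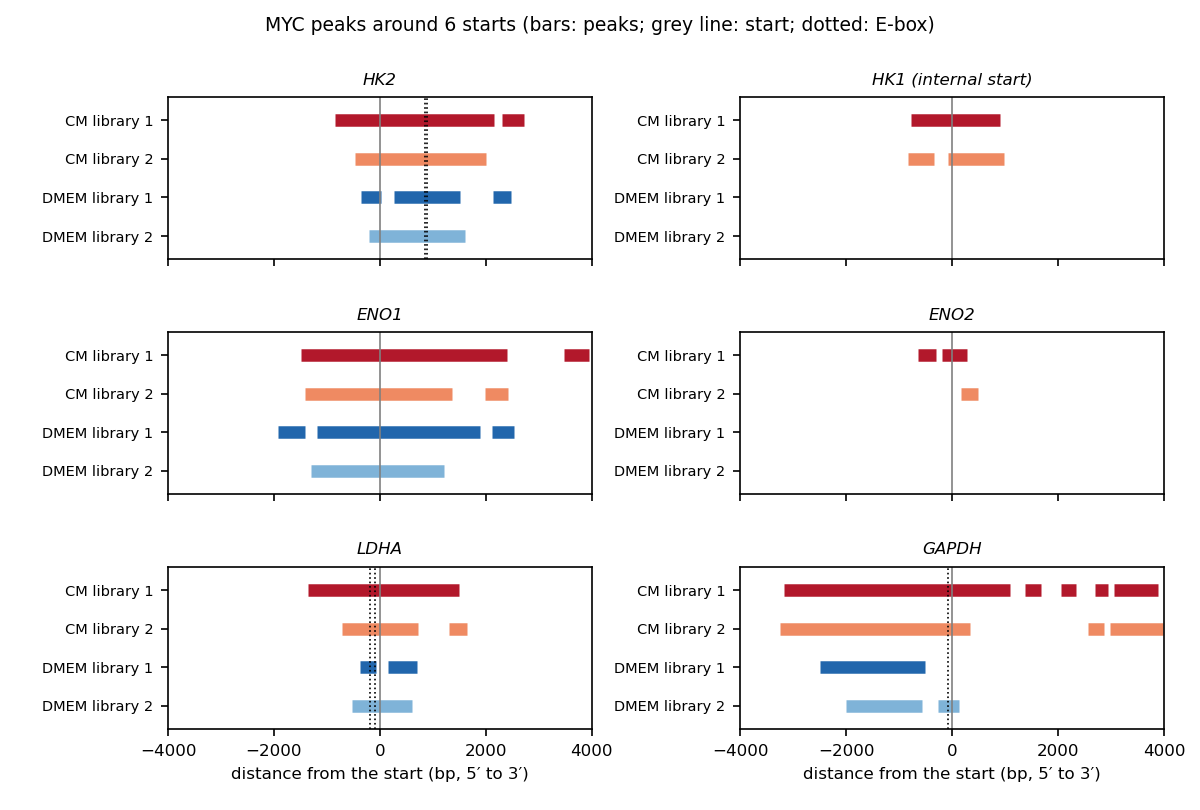
Peaks of the 2 CM and 2 DMEM libraries (bars) within 4000 bp of a start of 6 genes, by distance from that start in bp along the gene; dotted lines mark E-boxes found in promoter windows. The HK2, ENO1 and LDHA starts lie in or next to peaks of all 4 libraries, while ENO2 and the internal start of HK1 have peaks in CM only.

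Other glycolytic genes had peaks of high to middle rank. ALDOA, the aldolase gene, was at percentiles 91.9 and 88.7 in CM and 85.6 and 86.3 in DMEM. TPI1, which interconverts the triose phosphates, was at 81.6 and 85.9 in CM and 37.8 and 66.3 in DMEM, and PGAM1, a mutase, at 69.3 and 78.0 in CM and 29.5 and 40.6 in DMEM. Both were bound in every library without ranking near the top of any. The ATP-forming kinase gene PGK1 was at percentiles 82.9 and 84.3 in CM and 83.4 in DMEM library 2, with no peak in DMEM library 1. PKM, whose product makes pyruvate, was at 63.6 and 61.4 in CM and 35.0 in DMEM library 2, and had none in DMEM library 1 either.

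In some enzyme families, isoenzyme genes of the same step differed in whether they had a MYC peak. In others they did not, since PFKL and PFKP, and MDH1 and MDH2, were bound in all 4 libraries. Of the hexokinase pair, HK2 was near the top of every list, and HK1 had no peak at its outermost ends. HK1 has several listed starts, and the one at 69319064 on chromosome 10, the richest of them in CpG, lay inside peaks at percentiles 71.0 and 41.7 of the CM lists, with none inside the gene in DMEM. Counted by any listed start, an alternative chosen after the values were seen, 35 members were bound in both CM libraries, against 33.6% of all genes, and 22 in both DMEM and in all 4 libraries, against 13.8%. Of the aldolase pair, ALDOA was bound in all 4 libraries and ALDOC in none, although ALDOC holds an E-box 240 bases before its start. The nearest peak to an ALDOC end was at 1564 bp in CM library 1 and at 67667 bp or more in the other libraries.

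Of the enolases, ENO1 was bound throughout, and ENO2 was CM-only at percentiles 46.0 and 48.8, in peaks of 475 and 335 bp that overlapped each other and also lay next to LRRC23. Of the lactate dehydrogenases, LDHA was bound in all 4 libraries. LDHB, on chromosome 12 from 21635342 to 21657842, had its nearest peak 132689 and 133333 bp away in CM and 885644 and 133454 bp away in DMEM. The lactate transporter gene SLC16A1 had no peak closer than 60981 bp to its ends in any library. SLC16A3, the lactate exporter, had peaks at its outermost ends in CM library 1 alone, 2 low ones, the higher-scoring at percentile 8.46. Inside SLC16A3, the highest-ranked peaks lay 987 and 723 bp from the start at 82229042 on chromosome 17 in CM and 1244 bp from it in DMEM library 2. They reached percentiles 72.6 and 58.7 in CM and 61.1 in DMEM library 2.

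Phosphofructokinase, the committed step of glycolysis, has 3 genes. PFKL was at percentiles 85.8 and 90.6 in CM and 71.5 and 56.6 in DMEM, and PFKP at 90.4 and 86.6 in CM and 86.5 and 70.6 in DMEM. The best PFKL peaks of the 2 DMEM libraries did not overlap. PFKM had no peak at an end. Its nearest peaks lay inside the gene, 13815 and 13876 bp from an end in CM at percentiles 71.9 and 72.5, and 14011 bp in DMEM library 2 at percentile 58.2.

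PFKFB3 and PFKFB4 make and break the sugar phosphate that activates phosphofructokinase. PFKFB3 was at percentiles 82.1 and 85.1 in CM and 43.2 in DMEM library 2 at its outermost start. Its internal start at 6202932 on chromosome 10, which has an E-box 108 bases before it, lay under peaks of all 4 libraries, at percentiles 78.3 and 83.1 in CM and 23.8 and 61.1 in DMEM, although the DMEM library 1 peak did not cover the E-box. PFKFB4 had no peak at an outermost end, and 1 peak 338 bp from its listed start in CM library 2, at percentile 41.7. GPI, the phosphoglucose isomerase gene, had its nearest peaks just outside the window, 1318 and 1316 bp from an end in CM and 1414 and 1736 bp in DMEM. These lay beyond its 3′ end on chromosome 19, at percentiles 96.7 and 94.9 in CM and 59.8 and 97.0 in DMEM.

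**Figure D3:**
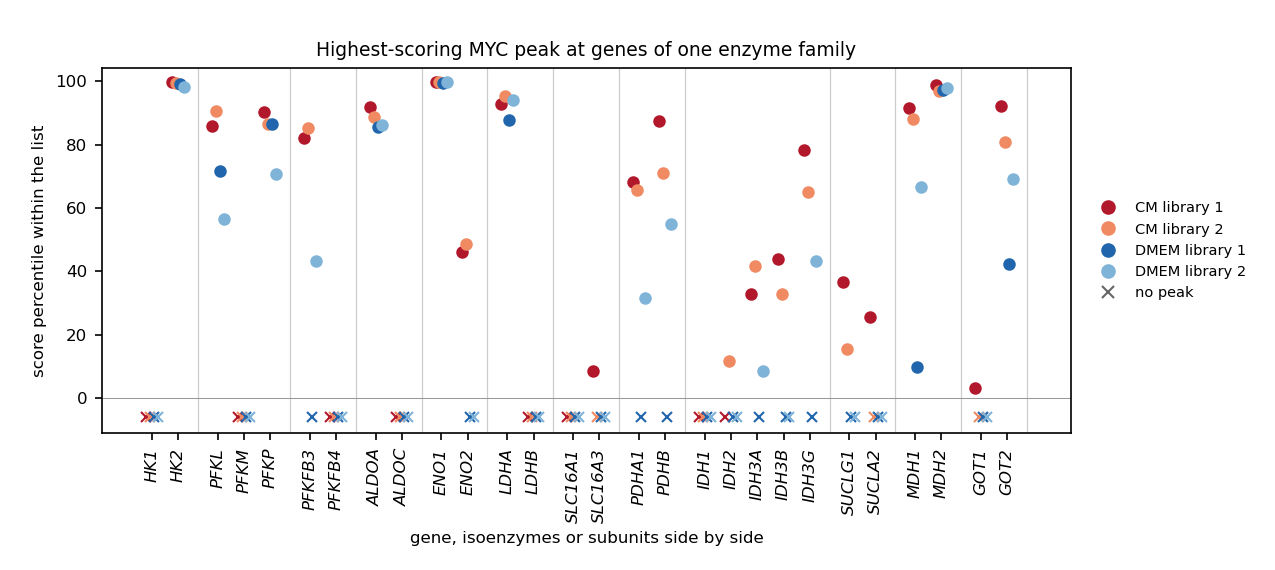
Score percentile of the highest-scoring peak in each of the 2 CM and 2 DMEM libraries (points) for genes of one enzyme family set side by side; crosses under the axis mark libraries with no peak at the gene's outermost ends. HK2, ALDOA, ENO1, LDHA, MDH2 and GOT2 have a point in all 4 libraries, and HK1, ALDOC, LDHB and IDH1 have crosses in all 4.

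Every one of the 6 pentose phosphate genes was bound in both CM libraries. In DMEM library 2 all 6 were bound, and in DMEM library 1 the 4 genes PGLS, PGD, RPIA and TKT. RPIA, which makes ribose phosphate for nucleotides, ranked highest, at percentiles 93.6 and 94.8 in CM and 46.1 and 85.4 in DMEM. PGLS and PGD, of the oxidative branch that yields NADPH, were at 85.8 and 83.5 and at 81.6 and 83.1 in CM, and at 61.0 and 39.6 and at 62.0 and 74.0 in DMEM. Both branches of the pathway were thus represented among genes bound in all 4 libraries.

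TKT, the transketolase gene, was at percentiles 86.3 and 71.1 in CM and 42.3 and 71.6 in DMEM. RPE, the epimerase gene, was at 73.8 and 59.6 in CM and 38.2 in DMEM library 2. TALDO1, the transaldolase gene, was at 51.6 and 32.9 in CM and 74.5 in DMEM library 2. Its best peaks in CM library 1 and DMEM library 2 did not overlap.

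For pyruvate entry and the TCA cycle, both CM libraries had peaks at 12 of 15 genes (80.0%, against 39.1% of all genes) and both DMEM libraries at 4 (26.7%, against 15.9%). DMEM library 1 had 4 of them, against 16.8% of all genes, and DMEM library 2 had 10 (66.7%), against 28.1%. MDH2, the mitochondrial malate dehydrogenase, on chromosome 7 from 76048106 to 76067508, was at percentiles 98.9 and 96.9 in CM and 97.3 and 97.9 in DMEM. STYXL1 has an end in the same peaks of all 4 libraries. MDH1, its cytosolic counterpart, was at 91.6 and 88.2 in CM and 9.93 and 66.6 in DMEM. CS, which joins acetyl-CoA to oxaloacetate, was at 79.4 and 88.7 in CM and 27.0 and 67.0 in DMEM, and FH, the fumarase gene, at 39.8 and 29.7 in CM and 19.0 and 18.9 in DMEM. Apart from MDH2, no gene of this group was at or above percentile 90 in both CM libraries.

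The 3 listed genes at the entrance of the cycle were among the 11 members bound in both CM libraries and, of the DMEM libraries, in DMEM library 2 alone. PDHA1 and PDHB, subunits of pyruvate dehydrogenase, were at percentiles 68.1 and 65.7 and at 87.3 and 71.1 in CM, and at 31.7 and 55.1 in DMEM library 2. PDK1, the kinase that inhibits that enzyme, was at 82.2 and 72.5 in CM and 45.9 in DMEM library 2. None had a peak at an end in DMEM library 1, where PDK1 had a low peak, at percentile 8.27, 410 bp from its second listed start. OGDH, the oxoglutarate dehydrogenase gene, was at 77.4 and 76.2 in CM and 27.8 in DMEM library 2.

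In the full lists, the isocitrate dehydrogenases differed by cofactor. The genes of the NAD-dependent enzyme were all bound in both CM libraries, IDH3A at percentiles 32.9 and 41.7, IDH3B at 44.0 and 32.9 and IDH3G at 78.3 and 64.9. In DMEM library 2, IDH3A was at 8.68 and IDH3G at 43.2, while IDH3B was CM-only. IDH3G shares its peaks with SSR4. The NADP-dependent genes had fewer peaks, with no peak at IDH1, whose nearest lay 10635 and 10632 bp away in CM and 610194 and 466350 bp away in DMEM, and a single peak at percentile 11.8 of CM library 2 at IDH2. In lists of equal length this contrast largely went. IDH3A and IDH3B then had no peak in any library, as IDH1 and IDH2 had none, and only IDH3G was still bound in both CM libraries. Of the succinyl-CoA ligase genes, SUCLG1 was CM-only at percentiles 36.8 and 15.5, in an interval shared with DNAH6, and SUCLA2 had 1 peak at 25.5 in CM library 1.

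The genes around glutamate and proline were bound in both media with 1 exception. GLUD1, which turns glutamate into oxoglutarate, was at percentiles 96.7 and 93.6 in CM and 73.7 and 91.7 in DMEM. GOT2, the mitochondrial aspartate transaminase, was at 92.1 and 80.7 in CM and 42.3 and 69.0 in DMEM. GOT1, its cytosolic counterpart, had only 1 peak, at percentile 3.28 of CM library 1. The pair thus differed in every library but that one in whether a peak was called.

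PYCR1 and ALDH18A1, which carry out the last and the first steps of proline synthesis from glutamate, were bound in all 4 libraries. PYCR1, on chromosome 17 from 81932391 to 81937300, was at percentiles 96.0 and 88.6 in CM and 75.6 and 93.1 in DMEM. ALDH18A1, on chromosome 10 from 95605941 to 95656711, was at 94.3 and 86.6 in CM and 51.8 and 82.9 in DMEM. The E-box printed above lay under its best peak in every library.

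**Figure D4:**
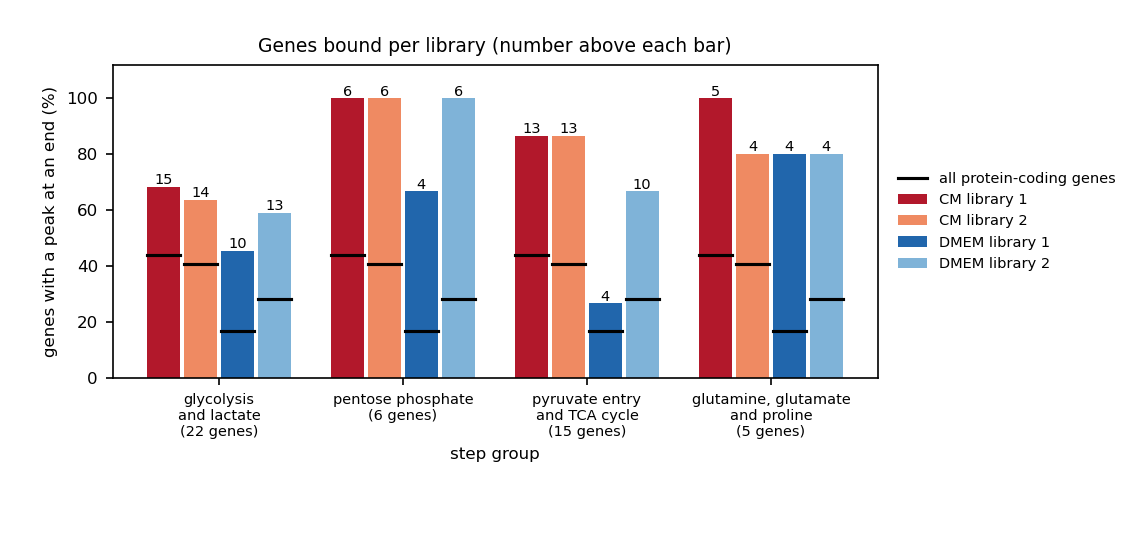
Share of the genes of each step group with a MYC peak at an end, in percent, for the 2 CM and 2 DMEM libraries, with the number of genes above each bar and the share of all protein-coding genes as a black line. DMEM library 1 bound 4 of the 15 pyruvate entry and TCA genes and 4 of the 5 glutamate and proline genes.

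Counts by step group are set beside the share of all genes. In CM, 14 of 22 glycolysis and lactate genes (63.6%), 6 of 6 pentose phosphate genes, 12 of 15 pyruvate entry and TCA genes (80.0%) and 4 of 5 glutamate and proline genes (80.0%) were bound in both libraries, against 39.1% of all genes. In DMEM the counts were 10 of 22 (45.5%), 4 of 6 (66.7%), 4 of 15 (26.7%) and 4 of 5 (80.0%), against 15.9% of all genes. The share of all genes was thus lower in DMEM too. The pyruvate entry and TCA count rests on DMEM library 1, without which it was 10. In lists of equal length, 7 of its 15 genes had a peak in both CM libraries, against 18.0% of all genes, and 3 in both DMEM libraries, against 13.9%. Differences between the step groups were not tested, since genes are not replicates.

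Best peaks at or above percentile 90 were counted in each list. CM library 1 had 14 such members (29.2%), against 8.16% of all genes, 7 of them of glycolysis and 4 of glutamate and proline metabolism. CM library 2 had 9 (18.8%), against 6.76% of all genes, 6 of them of glycolysis and 1 of glutamate and proline metabolism. DMEM library 1 had 3 (6.25%), against 2.53%, with 2 of glycolysis and 0 of glutamate and proline metabolism. DMEM library 2 had 7 (14.6%), against 3.98%, with 4 of glycolysis and 2 of glutamate and proline metabolism. The glutamate and proline count thus moved between 0 and 4 of 5 genes with the library. SLC2A1, HK2, GAPDH, ENO1, LDHA, RPIA, MDH2 and GLUD1 reached it in both CM libraries, 8 members against 5.85% of all genes. Peaks shared with another protein-coding gene end stood behind 27 of the 131 best peaks, at 9 members. The share over all bound genes is not given for this count either.

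Best peaks were wider in CM than in DMEM at most members. Of the 22 members bound in all 4 libraries, 19, or 86.4%, had both CM peaks wider than both DMEM peaks, and SLC2A1, ENO1 and FH did not. Of all 3180 genes bound in all 4 libraries, 90.0% did so, a share near that of the members. Median widths of the members' best peaks were 1513 and 1181 bp in CM and 574 and 701 bp in DMEM.

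Among 60 other genes of these pathways, 30 had a peak in both CM libraries, 15 in all 4 libraries and 10 in CM only; the shares of all genes in these states were 39.1%, 15.9% and 11.0%. SLC1A5, a glutamine importer gene, was at percentiles 92.4 and 83.8 in CM and 61.5 and 58.2 in DMEM. It was bound in all 4 libraries, as were MPC1 and MPC2, the genes of the mitochondrial pyruvate carrier. GLUL and ASNS had no peak at an end, although ASNS was bound in both CM libraries when counted by any listed start. PDP2, a phosphatase that activates pyruvate dehydrogenase, was at 96.3 and 97.6 in CM and 85.0 and 89.3 in DMEM, and DLAT, another subunit gene of that complex, at 91.4 and 87.1 in CM and 87.1 and 90.2 in DMEM.

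Of these genes, 26 had no peak at an end in any library, a state of 54.1% of all genes, among them LDHC, PGK2, HK3, PCK1 and G6PC1. SLC2A4, an insulin-regulated glucose importer gene, was at percentiles 84.4 and 88.5 in CM and 66.6 and 81.4 in DMEM. The muscle enolase gene ENO3 was at percentiles 94.3 and 87.4 in CM and 87.1 and 96.0 in DMEM, in peaks that also lay at an end of PFN1. The CM-only genes were BPGM, PKLR, PCK2, PGM1, DLD, PDK3, DLST, SDHAF2, ME1 and GPT2. The mitochondrial transaminase GPT2, for example, was at 67.1 and 78.9 in CM.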

How the data were processed

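MYC ChIP-seq peak lists of 4 immunoprecipitated libraries, 2 from CM and 2 from DMEM, were analysed; the 2 inputs were not analysed here. MACS2 2.1.1.20160309 is the peak caller named in the submitters' processing notes, which also list Bowtie2 2.3.4, Trim Galore 0.4.3, Picard 2.9.0 and SAMtools 1.3.1, and GRCh38 as the build. Caller settings, and the control behind each list, are not stated there. The deposited lists hold intervals without a summit, each with an integer score set by the authors, the lowest being 13. What that score measures is not written in the files. In the authors' common lists for CM and DMEM, the score was the mean over the joined peaks in all 9901 and 3380 intervals.

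Starts were converted to count from 1. Gene ends, transcript starts and promoter sequences came from RefSeq tables of GRCh38.p14, the files' build. A window was listed for 45 members, and not for SLC16A1, OGDH and PYCR1. Percentiles are average ranks divided by list length. Peaks were set against genes with Python 3.11.15 and pandas, and the overlap code was tested on simulated data. The members and lists were chosen with earlier results of these data known. All members are accounted for; some other pathway genes are not reported here by name. The rule for values per library named the 3 highest-ranked of each step group, all isoenzymes and all CM-only genes; the other members and pathway genes given with values, percentile 90 as a mark, and peak widths were chosen after the values were seen. Read depth is unknown, so no counting error is given. Alternatives were other windows, a minimum score of 50, lists of equal length, peak midpoints, the outermost start alone, the authors' common lists, overlapping best peaks and each library left out.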

Additional observations from a re-analysis of the deposited data

How the results depend on the processing

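The counts of members bound in CM (36), in DMEM (22) and in all 4 libraries (22) stayed within 1.5 times under every alternative run. The number of CM-only members, 3, did not. It was 5 with a window of 500 bp, 5 with a minimum score of 50, 1 in lists of equal length and 5 with a peak within 1000 bp of any listed start, an alternative chosen after seeing the data. Leaving out 1 library gave 3 to 14 CM-only members, with 6 without CM library 2 and 14 without DMEM library 2. The share of all genes is given only for lists of equal length, 1.93%, so these changes are not shown to be particular to the members. Without DMEM library 2, the CM-only call rests on DMEM library 1, which bound 16.8% of all genes, against 28.1% in DMEM library 2. Leaving out 1 library gave 36 to 39 members bound in CM, 22 to 33 in DMEM and 22 to 33 in all libraries left, the highest values of the last 2 without DMEM library 1. The difference per library was then 5.0 to 16.0 genes, and CM was higher in every alternative run. Of the 48 genes, 28 kept their number of bound libraries within 1.5 times throughout. Of the 15 pyruvate entry and TCA genes, 4 were bound in all 4 libraries, 1 with a minimum score of 50 and 10 without DMEM library 1. GPI had 4 bound libraries with a window of 2500 bp.

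The median percentile of bound members, averaged over the libraries, was 82.9 in CM and 67.9 in DMEM, in lists of unequal length that are not compared. The medians over all bound genes were 69.3 and 65.7 in the CM libraries and 59.8 and 60.4 in the DMEM libraries. The DMEM value of the members was 58.7 with the nearest peak, 63.7 with a window of 500 bp and 65.7 with 2500 bp. The cause of these changes was not tested.

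With the replicate numbers as a block, the difference of 10.5 genes had a sign-flip permutation p of 0.5, the smallest that 2 pairs allow. The labels do not say that the numbers pair cultures. Across 3180 genes bound in all 4 libraries, the difference of replicates 1 and 2 correlated between CM and DMEM with r = 0.0496, a value across genes.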

Other observations

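Some members had peaks inside the gene, more than 1000 bp from either outermost end. One lay inside PFKFB3 on chromosome 10, from 6162900 to 6164602 in CM library 1, at percentiles 95.7 and 95.3 in CM and 75.6 and 92.5 in DMEM. It lay 17979 bp from the nearest listed start and outranked the peak at the PFKFB3 start in the 3 libraries that had one there. A peak inside PDK1 on chromosome 2, from 172673717 to 172675538 in CM library 1, was at percentiles 73.4 and 44.1 in CM and had no counterpart in the DMEM lists.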
